A study of Mus musculus with 9 samples.

Results

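The genes described are 7 genes of MHC class II antigen presentation in mouse jejunum: the class II chains H2-Aa, H2-Ab1 and H2-Eb1, the invariant chain Cd74, the peptide exchange chains H2-DMa and H2-DMb1, and the transactivator Ciita. They were taken by Ensembl identifier from a table of 31685 genes, without use of their values, and 7 of 7 were among the 13056 genes with enough signal to test (at least 1 FPKM in at least 3 libraries). FPKM is the number of sequenced fragments of a gene scaled to its length and to the library total, so levels of different genes can be compared per length. RNA came from the jejunum of 9 wild-type C57BL/6J male mice aged 6 to 8 weeks, kept specific-pathogen-free, with 3 mice in each of 3 groups and the same batch label on every sample. Control mice were untreated. TAI mice received a single X-ray dose of 12 Gy to the abdomen (total abdominal irradiation), with the rest of the body shielded, and PBS according to the series design. TAI/IVIg mice received the same dose and 500 mg/kg of intravenous immunoglobulin (IVIg, pooled human IgG) within 1 h, repeated every 3 days. All tissue was taken on day 3.

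MHC class II molecules present peptides from endocytosed protein to CD4+ T cells. The alpha and beta chains assemble in the endoplasmic reticulum with the invariant chain, which fills the groove and directs the complex to endosomes, where proteases trim it and H2-DM exchanges the remaining fragment for peptide. Ciita, itself induced by interferon gamma in many cells, is recruited by a complex of RFX, NF-Y and CREB proteins on the X and Y boxes of class II promoters. B cells, dendritic cells and many macrophages express the genes constitutively, and the enterocytes of the small intestine can express them as well. C57BL/6 mice lack a functional E alpha chain, and its pseudogene H2-Ea-ps was at 0 to 0.167 FPKM (0 to 3 reads) in the 9 libraries.

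The libraries were compared before the groups. Between 16278117 and 18238706 reads per library were recovered from the FPKM values, with overlapping ranges between the groups. The median FPKM over all genes was less even. It was 0.332, 0.380 and 0.477 in control mice 1, 2 and 3 and 0.315, 0.369 and 0.382 in the TAI mice. In TAI/IVIg mice 1, 2 and 3 it was 0.237, 0.305 and 0.179, so TAI/IVIg mouse 3 was the lowest and control mouse 3 the highest. The samples are labelled epithelial tissue, and 10 epithelial markers summed to 6390 to 9266 FPKM, but 6 smooth muscle markers also summed to 113 to 765 FPKM and 6 fibroblast markers to 21.1 to 94.2 FPKM. Markers of B cells split the libraries irrespective of group. In control mice 1 and 3, TAI mouse 3 and TAI/IVIg mouse 2, 10 of 10 B cell markers exceeded 1 FPKM, whereas in the other 5 libraries between 0 and 2 of the 10 did. The summed B cell markers were 63.9, 4.23 and 474 FPKM in control mice 1, 2 and 3, 2.74, 3.72 and 85.1 FPKM in TAI mice 1, 2 and 3, and 1.96, 96.9 and 1.82 FPKM in TAI/IVIg mice 1, 2 and 3. The comparisons of the members and of their ratios are also given without these 4 libraries.

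On the GRCm38 assembly the H2 members lie in the MHC on chromosome 17, from 34119541 (start of H2-DMa) to 34316674 (end of H2-Eb1), and Ciita lies at chr16:10480059-10528418. RefSeq promoter windows (GRCm38.p6, from 250 bases before to 50 bases after a start site) were matched for 4 of the 7 members and for 4 of 4 class II chains known from B cells (H2-DMb2, H2-Oa, H2-Ob and H2-Eb2). The 150 bases before the start site are printed for 3 members whose windows hold both an X-type and a Y-type motif, and for H2-Ob and H2-Eb2, since these chains correlated more closely with the B cell markers than the 6 members other than Ciita did. Capitals mark the X pattern (CTNGNAACT, chosen after reading these sequences) and the Y box (CTGATTGG) or, where the longer form is absent, its core (ATTGG), which lies within the Y box. They are H2-Aa at chr17:34287824-34287973 on the minus strand, and H2-Eb1 at chr17:34305717-34305866, H2-DMb1 at chr17:34153041-34153190, H2-Ob at chr17:34238755-34238904 and H2-Eb2 at chr17:34325525-34325674 on the plus strand.
H2-Aa: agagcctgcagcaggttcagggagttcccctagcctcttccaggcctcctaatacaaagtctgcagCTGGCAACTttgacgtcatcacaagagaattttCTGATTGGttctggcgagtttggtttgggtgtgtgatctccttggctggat
H2-Eb1: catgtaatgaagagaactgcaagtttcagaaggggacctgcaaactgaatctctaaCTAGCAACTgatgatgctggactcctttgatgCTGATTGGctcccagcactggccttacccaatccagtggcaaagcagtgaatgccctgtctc
H2-DMb1: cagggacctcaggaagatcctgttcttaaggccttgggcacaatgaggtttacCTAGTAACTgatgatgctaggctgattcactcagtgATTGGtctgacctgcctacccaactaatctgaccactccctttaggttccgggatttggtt
H2-Ob: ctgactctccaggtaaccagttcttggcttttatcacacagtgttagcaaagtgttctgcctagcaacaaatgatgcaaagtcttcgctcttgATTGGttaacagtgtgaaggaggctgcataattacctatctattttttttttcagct
H2-Eb2: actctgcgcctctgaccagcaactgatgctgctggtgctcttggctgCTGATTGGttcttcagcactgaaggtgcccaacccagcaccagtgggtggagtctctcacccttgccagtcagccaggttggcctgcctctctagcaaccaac

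In H2-Aa, H2-Eb1 and H2-DMb1 the X pattern began 84, 94 and 97 bases before the start site, and 27, 26 and 27 bases separated it from the Y core. Both strands of 32851 windows of the same length were searched. The core was found in 37.4% of them, the Y box in 4.10% and the X pattern in 4.10%, and an X pattern with a core starting within 50 bases downstream was found in 43 windows (0.131%). H2-Oa also held the Y box, and H2-DMb2 and 1 of the windows of H2-DMa held the core. The annotated gene models of H2-DMb1, H2-Ob and H2-Eb2 begin within the stretches printed. The X pattern was written from the windows of these members, so its presence in them was fixed, and the shares over all windows are no measure of it. The stretches of H2-Ob and H2-Eb2 each hold a run that is 1 letter off the pattern, starting 90 and 135 bases before the start site and left in lower case. These matches describe the letters of the windows and not binding.

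The alpha and beta chains overlapped between the groups and differed widely between mice of a group. H2-Aa (ENSMUSG00000036594), the alpha chain of the I-A molecule, was at 31.9, 34.6 and 159 FPKM in control mice 1, 2 and 3, at 28.0, 54.5 and 60.6 FPKM in the TAI mice and at 49.6, 58.3 and 129 FPKM in the TAI/IVIg mice. Control mouse 3 and TAI/IVIg mouse 3 stood above the others, and the ranges of all 3 groups overlapped. H2-Ab1 (ENSMUSG00000073421), the beta chain paired with it, was at 42.7, 56.2 and 158 FPKM in the control mice, 51.1, 94.3 and 92.4 FPKM in the TAI mice and 99.4, 89.1 and 198 FPKM in the TAI/IVIg mice. Here TAI/IVIg mouse 3 was the highest, and the lowest TAI/IVIg mouse lay below the highest TAI mouse. H2-Eb1 (ENSMUSG00000060586), the beta chain of the I-E molecule, was at 45.1, 45.8 and 208 FPKM in the control mice, 40.3, 75.9 and 75.0 FPKM in the TAI mice and 60.4, 83.6 and 117 FPKM in the TAI/IVIg mice. Its highest value was again that of control mouse 3, at 4.61 times the lowest control mouse.

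Cd74 (ENSMUSG00000024610), the invariant chain, was the highest member in 9 of 9 libraries and made up 53.4% to 61.6% of the summed FPKM of the 7 genes. It was at 177, 247 and 664 FPKM in control mice 1, 2 and 3, at 165, 337 and 320 FPKM in the TAI mice and at 305, 304 and 601 FPKM in the TAI/IVIg mice. The control range covered the ranges of TAI/IVIg and of 2 of the 3 TAI mice.

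The peptide exchange chains were lower per length than the presenting chains in every library. H2-DMa (ENSMUSG00000037649) was at 4.07, 4.61 and 15.5 FPKM in the control mice, 3.15, 5.36 and 5.23 FPKM in the TAI mice and 4.03, 7.41 and 9.01 FPKM in the TAI/IVIg mice. H2-DMb1 (ENSMUSG00000079547), its partner, was at 9.00, 11.7 and 29.9 FPKM in the control mice, 7.95, 15.2 and 13.0 FPKM in the TAI mice and 10.8, 16.2 and 29.3 FPKM in the TAI/IVIg mice. H2-DMb1 is 94.6% identical to H2-DMb2 over 1219 aligned transcript bases, so reads of this pair may have been split uncertainly between them.

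Ciita (ENSMUSG00000022504), the transactivator, was the lowest member in 9 of 9 libraries and the least even. It was at 1.61, 0.866 and 8.91 FPKM in the control mice (266, 146 and 1471 reads), 0.318, 0.715 and 1.73 FPKM in the TAI mice (52, 111 and 301 reads) and 0.245, 2.38 and 0.625 FPKM in the TAI/IVIg mice (42, 385 and 100 reads). The highest and lowest mice differed 10.3-fold within control, 5.44-fold within TAI and 9.70-fold within TAI/IVIg. The 4 mice with the most Ciita were the 4 with B cell markers. Only in these 4 did it reach 1 FPKM, so it passed the filter through them alone.

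**Figure D1:**
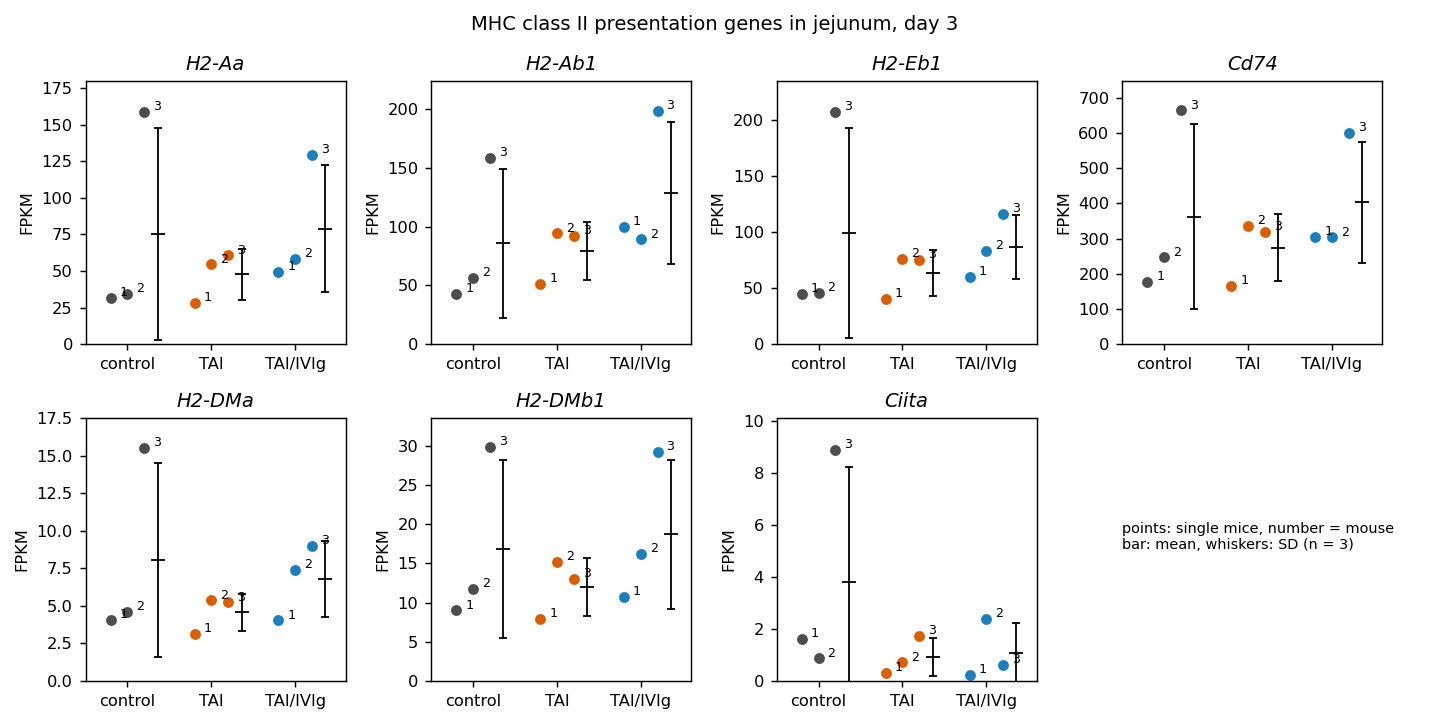
FPKM of the 7 class II genes (vertical axes, linear, from 0) in each mouse of the 3 groups, with the mouse number beside each point and the mean and SD (n = 3) to the right (whiskers that would pass below 0 end at the axis). Control mouse 3 is the highest mouse for every gene except H2-Ab1, where TAI/IVIg mouse 3 is, and the groups overlap in every panel.

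Whether irradiation or IVIg altered these genes was asked with limma on log2(FPKM + 1), with all 9 libraries in the fit. In TAI against control, 0 of the 7 members passed a Benjamini-Hochberg adjusted p under 0.05, while 8.81% of all genes tested were called higher and 26.1% lower. None of the 7 had an unadjusted p under 0.05, and limma voom on the recovered reads also called 0 of 7. The median log2 fold change of the members was -0.30, beside -0.235 over all genes tested. The estimates were -0.30 for H2-Aa (standard error 0.62, limma adjusted p = 0.723), 0.07 for H2-Ab1 (0.50, adjusted p = 0.917), -0.30 for H2-Eb1 (0.56, adjusted p = 0.700) and -0.23 for Cd74 (0.51, adjusted p = 0.740). For H2-DMa, H2-DMb1 and Ciita they were -0.51, -0.32 and -0.99, with limma adjusted p-values of 0.401, 0.615 and 0.238. The 95% interval for H2-Aa ran from -1.71 to 1.10, so changes of over 2-fold in either direction lay within it. Without control mouse 3 the estimates for H2-Aa, H2-Eb1, Cd74, H2-DMa and H2-DMb1 were positive, at 0.44, 0.42, 0.32, 0.04 and 0.16. Without the 4 libraries with B cell markers, 0 of 7 were called and the median of the members was -0.06.

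In TAI/IVIg against control, 0 of 7 members were called, beside 9.06% of all genes called higher and 37.4% called lower. None of the 7 had an unadjusted limma p under 0.05, and limma voom on the recovered reads again called 0. The median log2 fold change of the members was 0.21, against -0.39 over all genes tested. The largest positive estimate was that of H2-Ab1, at 0.73 (standard error 0.50, 95% interval -0.40 to 1.86, limma adjusted p = 0.251), and the largest negative one that of Ciita, at -0.94 (standard error 0.62, 95% interval -2.33 to 0.46, limma adjusted p = 0.230). H2-Aa, H2-Eb1, Cd74, H2-DMa and H2-DMb1 were at 0.35, 0.15, 0.31, -0.05 and 0.21. Leaving out control mouse 3 raised the estimate for H2-Ab1 to 1.28, with a limma adjusted p of 0.0384. In that fit 1 of 7 members was called, beside 940 higher and 3584 lower of all 13056 genes. Without the 4 libraries with B cell markers, which leaves control mouse 2 alone against TAI/IVIg mice 1 and 3, the median of the members was 0.79 and 0 of 7 were called.

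In TAI/IVIg against TAI, which asks what IVIg added after irradiation, 0 of 7 members were called, and so were 0% of all 13056 genes in the higher and 0% in the lower direction. At an unadjusted limma p under 0.05 there were 1680 of all genes and 0 of the members, and limma voom on the recovered reads called 0 genes as well. All 7 estimates were positive, from 0.05 for Ciita to 0.66 for H2-Aa, with a median of 0.53 beside -0.13 over all genes tested. The members varied together between mice, so their shared sign is not 7 independent observations. The interval for H2-Aa ran from -0.75 to 2.06 and that for H2-Ab1 from -0.48 to 1.78. Without TAI/IVIg mouse 3 the median of the members was 0.22, and without the 4 libraries with B cell markers it was 0.65, with 0 of 7 called.

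**Figure D2:**
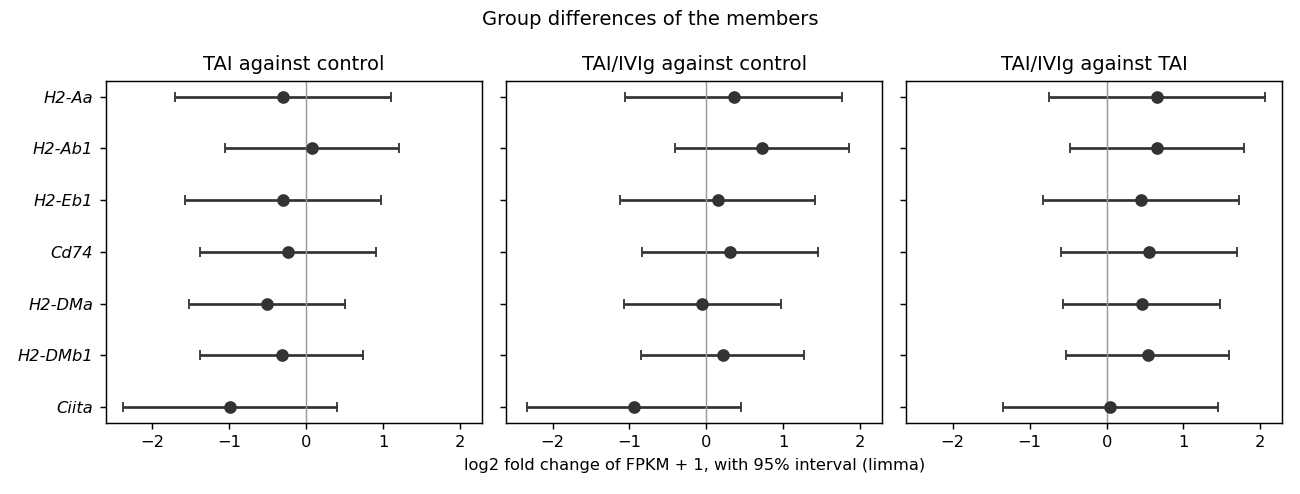
Log2 fold change of FPKM + 1 (horizontal axis) of each class II gene in the 3 comparisons, with 95% intervals from limma. Every interval includes 0, and all 7 points lie to the right of 0 only in TAI/IVIg against TAI, where Ciita is at 0.05.

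Setting the library medians equal on the log scale moved the median of all genes to 0.05 in TAI against control and to 0.10 in TAI/IVIg against control, shifts of over 0.1. The calls over all genes, 1150 higher and 3411 lower in TAI and 1183 and 4880 in TAI/IVIg, became 2159 and 1823, and 2880 and 1894. Under that scaling the median of the members was -0.02 and 0.70 in these comparisons, and 0 of 7 members were called in either.

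Ratios between members within a library do not depend on the scaling of that library. The ratio of Cd74 to H2-Ab1 was 4.14, 4.39 and 4.19 in control mice 1, 2 and 3, 3.23, 3.57 and 3.46 in the TAI mice and 3.06, 3.41 and 3.03 in the TAI/IVIg mice. All 6 irradiated mice lay below all 3 control mice, although Cd74 itself spanned 165 to 664 FPKM. The log2 difference was -0.31 in TAI against control and -0.42 in TAI/IVIg against control. Each had a two-sided exact permutation p of 0.1, the smallest that 3 mice against 3 allow, and an adjusted p of 0.375 over the 15 ratio tests run by exact permutation. With any single mouse left out the differences ran from -0.34 to -0.27 and from -0.48 to -0.39, and without the 4 libraries with B cell markers they were -0.37 and -0.53.

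The ratio of H2-Eb1 to H2-Ab1 was 1.06, 0.815 and 1.31 in the control mice, 0.788, 0.806 and 0.812 in the TAI mice and 0.608, 0.939 and 0.588 in the TAI/IVIg mice. TAI and control mice did not overlap (two-sided exact permutation p = 0.1, adjusted p = 0.375), but the closest values were 0.812 and 0.815, and the log2 difference of -0.38 was -0.03 without the 4 libraries with B cell markers. The ratio of H2-Ab1 to Ciita was 26.6, 64.8 and 17.8 in the control mice, 161, 132 and 53.4 in the TAI mice and 406, 37.5 and 317 in the TAI/IVIg mice. In each group it was lowest in a mouse with B cell markers, and the groups overlapped. Among the 5 libraries without those markers, control mouse 2 was at 64.8 and the 4 irradiated mice were at 132 to 406.

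The members varied together from mouse to mouse, with Ciita the least like the others. Over the 9 libraries Pearson's r of log2(FPKM + 1) between members ran from 0.310 (H2-Ab1 and Ciita) to 0.981 (H2-Aa and Cd74) in 21 pairs. The libraries share groups and scaling, so these values are a description. Of the genes outside the list, those with profiles most like the mean of the members over the 9 libraries were Rab10os (r = 0.961), Elk4 (0.947), Mif4gd (0.942), Fancg (0.925), Ccdc9 (0.923), Gm49396 (0.922), Znrf2 (0.911), Fbxl12 (0.910), Clk1 (0.893) and Sbk1 (0.892). By deviations from the group means they were Eri3 (0.990), Elk4 (0.981), Clk1 (0.978), Ccdc90b (0.973), Zfp369 (0.971), Vamp2 (0.969), Rab10os (0.962), Gins4 (0.960), Rps15a-ps7 (0.959) and Rhoq (0.958), so that Rab10os, Elk4 and Clk1 stood in both lists. No gene of the class II pathway lists was among either 10.

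B cell transcripts moved with a subset of the class II genes. H2-DMb2, a second DM beta chain, H2-Oa and H2-Ob, the chains of the H2-DM inhibitor H2-O, and H2-Eb2, an I-E beta-like chain, summed to 18.1, 1.47 and 145 FPKM in control mice 1, 2 and 3, to 0.787, 1.13 and 27.0 FPKM in the TAI mice and to 0.682, 32.0 and 0.580 FPKM in the TAI/IVIg mice. H2-Ob alone was at 5.35, 0.231 and 39.0 FPKM, at 0.0434, 0.126 and 6.28 FPKM and at 0.0620, 9.20 and 0.0997 FPKM in the same order. Divided by the summed B cell markers, the 4 chains gave 0.284 to 0.349 in 9 of 9 libraries. In the libraries without B cell markers most of that sum was H2-DMb2, which may share reads with H2-DMb1. It gave 0.668 of 0.787 FPKM in TAI mouse 1, but 64.8 of 145 FPKM in control mouse 3. The steady ratio therefore does not hold for each chain. Correlations of the 4 chains with the mean of the B cell markers over the 9 libraries were 0.994 to 0.999. That of Ciita was 0.957, and those of the other 6 members were 0.188 (H2-Ab1) to 0.644 (H2-DMa). No correlation is given over the 5 libraries without B cell markers, which are too few. In bulk RNA, fewer cells of a type and less RNA per cell cannot be told apart. None of these 4 chains was called in any comparison by limma, and their medians of -1.49 and -1.47 in the comparisons with control stood beside medians of -1.45 and -1.44 for the 10 B cell markers, of which 0 were called.

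**Figure D3:**
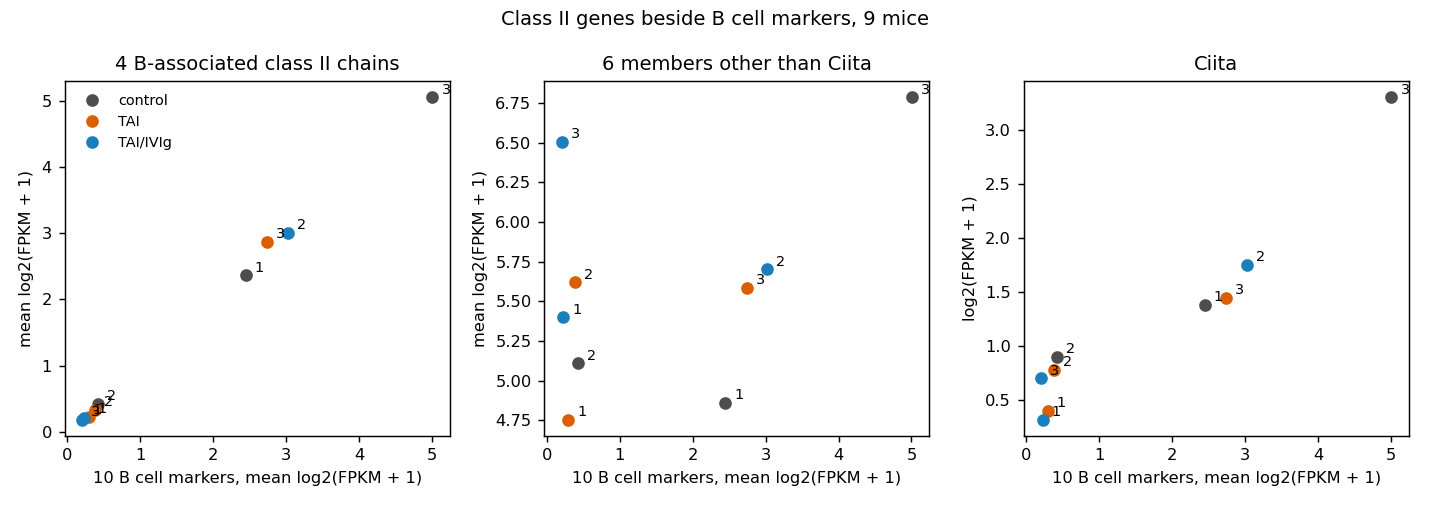
Mean log2(FPKM + 1) of the 4 B-associated class II chains, mean of the 6 members other than Ciita, and Ciita, against the mean of 10 B cell markers, for 9 mice with their numbers. The 4 chains and Ciita follow the markers (r of at least 0.957), whereas TAI/IVIg mouse 3 has the second highest level of the 6 members with B cell markers near 0.

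The 6 members other than Ciita summed to 309, 400 and 1234 FPKM in control mice 1, 2 and 3, to 296, 582 and 566 FPKM in the TAI mice and to 529, 558 and 1084 FPKM in the TAI/IVIg mice. Control mouse 1 had B cell markers and a low sum, and TAI/IVIg mouse 3 had no B cell marker above 1 FPKM and a high one. In TAI/IVIg mouse 3 the marker sums of other antigen-presenting cells were also low, as was the median over all genes, at 0.179 FPKM. The 10 dendritic cell markers summed to 3.19 FPKM, against 5.05 to 30.6 FPKM elsewhere. The upper end was control mouse 3, where Ccr7 alone was at 19.0 FPKM. Not all of the list was low in TAI/IVIg mouse 3, since Cd209a and Clec10a lay above the control mice. These rested on only 7 and 15 reads, against at most 6 and 15 reads in a control mouse. The 11 macrophage markers summed to 111 FPKM in TAI/IVIg mouse 3, against 161 to 191 FPKM elsewhere. This list was mixed as well. Mertk (43.6 FPKM), Cx3cr1 (1.68) and Cd14 (4.61) lay above the highest control mouse, at 26.2, 1.53 and 4.57 FPKM. C1qa, C1qb and C1qc lay below all control mice. The sum of the 6 members was 9.80 times that of the macrophage markers in this mouse, 7.38 times in control mouse 3 and 1.82 to 3.46 times in the other 7 mice. Smooth muscle markers were at 113 FPKM in this library and 302 to 765 FPKM elsewhere, and the 10 markers of absorptive enterocytes were at 48123 FPKM, within the range of the other irradiated mice (30689 to 51292 FPKM). The part of each cell type in the class II levels was not tested.

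**Figure D4:**
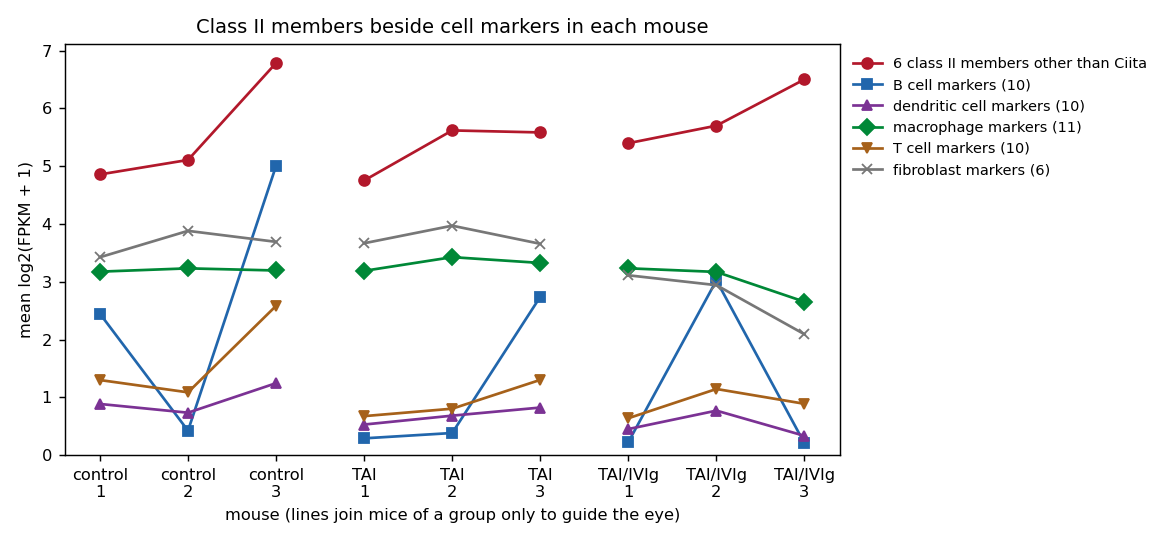
Mean log2(FPKM + 1) of the 6 class II members other than Ciita and of marker lists of 5 cell types in each mouse, with the number of markers in brackets. The 6 members peak in control mouse 3 together with the B and T cell markers. They peak again in TAI/IVIg mouse 3, where the means of the B cell, dendritic cell, macrophage and fibroblast markers are low.

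Control mouse 3 was also the highest for T cell markers, with 10 of them summing to 59.4 FPKM against 6.48 to 16.7 FPKM elsewhere, and for Ccr7, a chemokine receptor of the dendritic cell list that lymphocytes also make, at 19.0 FPKM against 0.0603 to 4.43 FPKM elsewhere. Without control mouse 3 and TAI/IVIg mouse 3, 0 of 7 members were called in any comparison by limma, and the medians of the members were 0.32 in TAI against control, 0.54 in TAI/IVIg against control and 0.22 in TAI/IVIg against TAI. Of all genes, this fit called 858 higher and 1871 lower in TAI against control and 677 and 2295 in TAI/IVIg against control. With the B cell marker level as a covariate, 0 of 7 were called as well, and the medians were 0.02, 0.56 and 0.53. The covariate fit called 939 higher and 2395 lower of all genes in TAI and 997 and 3988 in TAI/IVIg, against control. Neither fit called any gene in TAI/IVIg against TAI.

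Some of the other genes of the pathway were called against control. Of 37 tested genes in 6 lists, limma called 4 higher and 4 lower in TAI against control and 5 higher and 8 lower in TAI/IVIg against control, at the same Benjamini-Hochberg threshold as above, and 0 in TAI/IVIg against TAI, where 2 had an unadjusted p under 0.05. These shares were 10.8% higher and 10.8% lower in TAI, beside 8.81% and 26.1% of all genes, and 13.5% and 21.6% in TAI/IVIg, beside 9.06% and 37.4%. The median log2 fold change of the 37 was -0.21 in TAI and -0.27 in TAI/IVIg. With the replicate number as a block, Ifi30, a lysosomal thiol reductase, was also called lower in TAI, at -0.60 (limma adjusted p = 0.0127, against 0.0578 without the block). Once library medians were equalised, 9 were called higher and 2 lower in TAI, and 12 higher and 1 lower in TAI/IVIg. Calls over all 13056 genes also moved toward higher under that scaling, to 2159 higher and 1823 lower in TAI and 2880 and 1894 in TAI/IVIg. Without the 4 libraries with B cell markers, which leaves 1 control, 2 TAI and 2 TAI/IVIg mice, 0 genes were called in TAI and 1 (Ctsh) in TAI/IVIg. With each mouse left out in turn, the calls of Ctsz, Lgmn, Prdm1 and Irf1 in TAI and of Ctsz, Ctsh, Ctsb, Nfyb, March8, Ifngr2 and Pdcd1lg2 in TAI/IVIg held in 6 of 6 fits. In TAI, Ctsb held in 5 of 6, Ctsh and Sppl2a in 2 and Nfyc in 1, and in TAI/IVIg, Irf1 held in 5, Prdm1 and Irf8 in 4, Rfx5 in 3 and Lgmn and Nfyc in 2. Levels of both comparisons rest on the same 3 control mice.

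Among 9 proteases and related enzymes that process antigen and the invariant chain, 3 fell and 2 rose in TAI, and 3 fell and 1 rose in TAI/IVIg, against control. The 33.3% that fell in each comparison lay near the 26.1% and 37.4% of all genes called lower, so the count says nothing particular to the list. The shares that rose, 22.2% and 11.1%, stood beside 8.81% and 9.06% of all genes called higher. Ctsz, the carboxypeptidase cathepsin Z, was at 232, 261 and 244 FPKM in the control mice, 89.6, 107 and 106 FPKM in the TAI mice and 94.0, 149.5 and 156 FPKM in the TAI/IVIg mice. It fell in TAI by 1.27 on the log2 scale (standard error 0.20, limma adjusted p = 0.0024) and in TAI/IVIg by 0.91 (0.20, adjusted p = 0.00627), with no overlap with control. Its call passed under 3 of 3 other scalings in TAI but under 1 of 3 in TAI/IVIg, where the estimate of smallest size was -0.42.

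Ctsh, the aminopeptidase cathepsin H, was at 15.9, 16.4 and 23.9 FPKM in the control mice, 5.80, 8.31 and 7.03 FPKM in the TAI mice and 4.14, 9.61 and 2.49 FPKM in the TAI/IVIg mice. It fell by 1.28 (limma adjusted p = 0.0247) and by 1.75 (adjusted p = 0.0049), and passed under each of 3 other scalings in both comparisons. Ctsb, cathepsin B, fell by 0.50 and 0.48 (limma adjusted p = 0.011 and 0.00913) but passed under 0 of 3 other scalings, and its estimate in TAI/IVIg was 0.01 under one of them. Lgmn, the asparagine endopeptidase legumain, rose from 63.2, 56.6 and 54.6 FPKM in the control mice to 97.1, 87.1 and 85.1 FPKM in the TAI mice and 73.0, 83.0 and 78.1 FPKM in the TAI/IVIg mice, by 0.62 and 0.42 on the log2 scale (limma adjusted p = 0.00569 and 0.0195). Sppl2a, the intramembrane protease that removes the last invariant chain stub, rose in TAI by 0.61 (limma adjusted p = 0.0475) and was at 0.52 in TAI/IVIg (adjusted p = 0.0662). Ctss, cathepsin S, the main invariant chain protease of many presenting cells, was the most even of the list, at 242 to 305 FPKM in the 9 libraries, with estimates of -0.12 and 0.03 against control.

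Of the 7 genes of the complex on the X and Y boxes, 1 was called lower in TAI and 3 in TAI/IVIg, and 0 were called higher. These shares, 14.3% and 42.9%, stood beside 26.1% and 37.4% of all genes called lower. Nfyc, a subunit of the Y box factor NF-Y, was at 12.3, 13.4 and 15.4 FPKM in the control mice, 9.70, 9.25 and 9.13 FPKM in the TAI mice and 7.90, 11.5 and 10.8 FPKM in the TAI/IVIg mice, a change of -0.50 and of -0.42 on the log2 scale (limma adjusted p = 0.0339 and 0.0497). Nfyb fell by 0.58 in TAI/IVIg (limma adjusted p = 0.00913). Rfx5, the X box subunit, fell by 0.83 in TAI/IVIg (limma adjusted p = 0.0356), with 1.29, 1.35 and 0.445 FPKM against 2.23, 1.63 and 4.13 FPKM in the control mice. These calls passed under 0 of 3 other scalings, and the estimate of Nfyc changed sign under 2 of the settings tried. The estimates of Nfyb and Nfyc were smaller in size under every one of those scalings, so their calls rest on the scaling to library totals. That of Rfx5 ran from -0.92 to -0.34 under them, and was -0.33 without control mouse 3 and TAI/IVIg mouse 3.

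In the chain from interferon gamma to Ciita, Irf1, the factor that acts on an interferon-inducible Ciita promoter, rose in both irradiated groups. It was at 40.6, 34.1 and 38.7 FPKM in the control mice, 76.9, 84.1 and 67.1 FPKM in the TAI mice and 97.5, 59.9 and 50.3 FPKM in the TAI/IVIg mice, which gave 0.99 (standard error 0.23, limma adjusted p = 0.0113) and 0.80 (0.23, adjusted p = 0.019) on the log2 scale. Both calls passed under 3 of 3 other scalings. Ifngr2, a chain of the interferon gamma receptor, rose in TAI/IVIg by 0.69 (limma adjusted p = 0.00846), from 47.7, 44.1 and 41.1 FPKM in the control mice to 63.5, 67.3 and 86.9 FPKM. Irf8, a factor of B cells and myeloid cells, fell in TAI/IVIg by 0.84 (limma adjusted p = 0.017), a call that passed under 0 of 3 other scalings. Ifng itself was below the filter, at 0 to 0.178 FPKM. Of the 9 tested genes of this list, 1 rose and 0 fell in TAI, and 2 rose and 1 fell in TAI/IVIg, or 11.1% and 22.2% called higher beside 8.81% and 9.06% of all genes.

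Prdm1, the factor Blimp-1 that represses Ciita in plasma cells and is also made in enterocytes, rose from 5.44, 3.98 and 4.07 FPKM in the control mice to 17.4, 13.1 and 15.6 FPKM in the TAI mice, or 1.58 on the log2 scale (standard error 0.35, limma adjusted p = 0.00993). In the TAI/IVIg mice it was at 22.9, 7.18 and 8.89 FPKM, or 1.19 on the log2 scale (0.35, limma adjusted p = 0.0222), and both calls passed under 3 of 3 other scalings. March8, a ubiquitin ligase that can take class II molecules off the surface, rose in TAI/IVIg by 0.48 (limma adjusted p = 0.0101), from 10.8, 10.5 and 8.99 FPKM to 13.3, 14.7 and 15.4 FPKM. March1, the related ligase of B cells and dendritic cells, was at -0.65 and -0.87 (limma adjusted p = 0.246 and 0.11), and its correlation with the B cell markers over 9 libraries was 0.853. Of the 5 costimulators tested, 1 was called lower in TAI/IVIg, or 20.0%, below the 37.4% of all genes called lower there. This was Pdcd1lg2, the ligand PD-L2, which fell by 0.76 (limma adjusted p = 0.00803) and passed under 1 of 3 other scalings. It was at 1.23, 1.21 and 1.62 FPKM in the control mice. Besides these, only TAI mouse 2, at 1.41 FPKM, reached the 1 FPKM of the filter. It thus entered the test through the group where it was high, and the filter favoured a fall against control. In the TAI/IVIg mice it was at 0.539, 0.390 and 0.243 FPKM, on only 19, 13 and 8 reads.

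**Figure D5:**
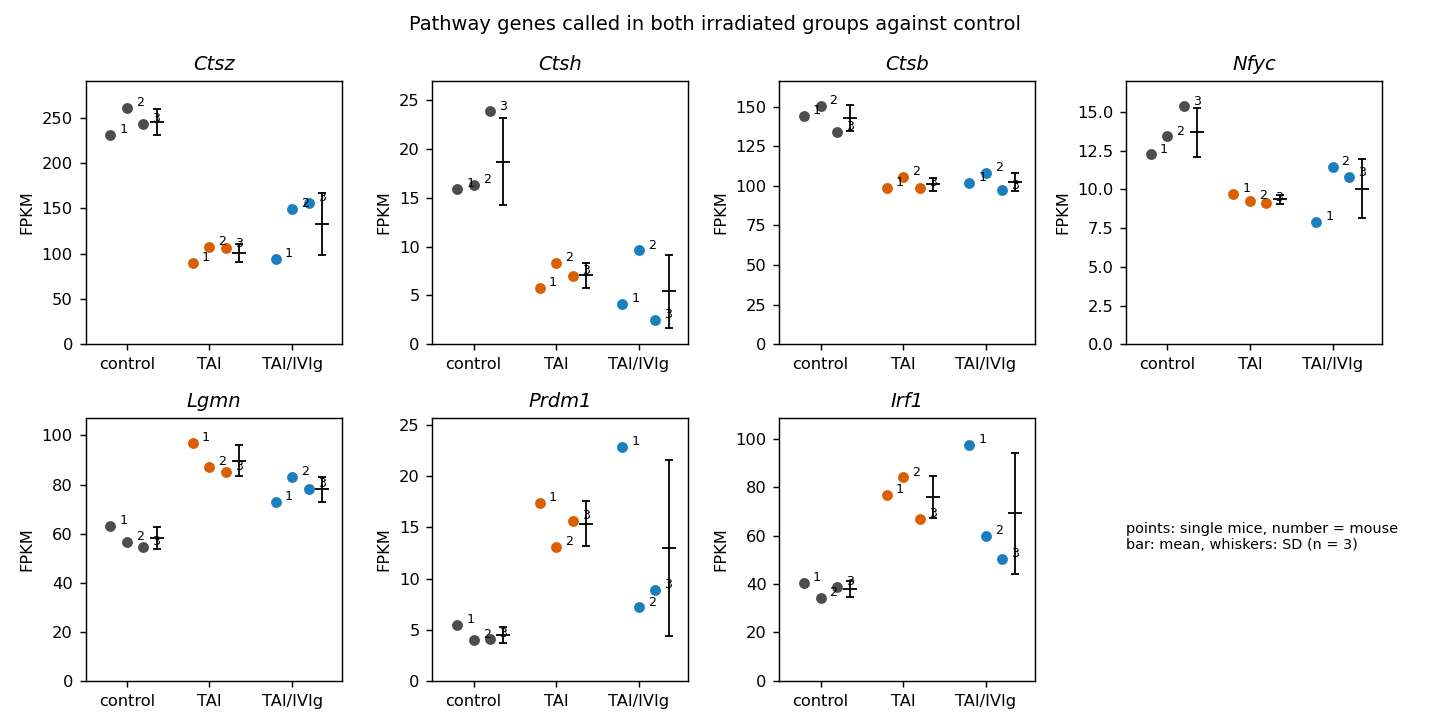
FPKM (vertical axes, linear, from 0) of the 7 pathway genes called in both irradiated groups against control, by mouse, with mean and SD (n = 3). Ctsz, Ctsh, Ctsb and Nfyc lie below the control mice in all 6 irradiated mice, and Lgmn, Prdm1 and Irf1 above them. The genes were chosen by calls against the same control mice, so this separation largely follows from the choice. The calls of Ctsb and Nfyc hold under 0 of 3 other scalings and that of Ctsz in TAI/IVIg under 1 of 3.

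A pair of interferon-responsive genes of these lists, singled out after their values were seen, differed widely among the TAI/IVIg mice. Cd274, the checkpoint ligand PD-L1, was at 49.2, 7.23 and 1.25 FPKM in TAI/IVIg mice 1, 2 and 3, at 21.0, 28.6 and 12.6 FPKM in the TAI mice and at 6.18, 6.19 and 8.96 FPKM in the control mice. Socs1, an inhibitor of the interferon gamma receptor kinases, was at 12.3, 2.73 and 1.19 FPKM in TAI/IVIg mice 1, 2 and 3, beside 5.76, 8.13 and 5.05 FPKM in the TAI mice and 2.91, 2.12 and 4.55 FPKM in the control mice. Both were highest in TAI/IVIg mouse 1 and lowest in mouse 3 of that group, where 6 of the 7 members were highest in mouse 3 and Ciita in mouse 2. In the control group Cd274, Socs1 and 7 of 7 members were highest in mouse 3. Neither was called by limma in a comparison between groups, with adjusted p-values of 0.264 or more.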

How the data were processed

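RNA was sequenced from the jejunum of 9 mice, 3 in each group. The authors deposited FPKM values per gene and mouse, without pooling. The submitters' processing notes name FastQC, Trimmomatic, STAR, featureCounts, DESeq2 and the mouse assembly mm10/GRCm38, with no versions. Whole reads were recovered for 100% of the 31685 genes (tolerance 0.001 read), and a symbol was matched for 31146. Groups were compared on log2(FPKM + 1) by limma 3.58.1 (R 4.3.3) in a model of the 3 group means with a trended prior variance and Benjamini-Hochberg adjustment over the 13056 genes tested. The added 1 shrinks the fold change of weakly expressed genes. The steps were tested on simulated reads. Ratios were compared by two-sided exact permutation tests in Python 3.11.15 with scipy 1.17.1.

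The members and gene lists were chosen with earlier results of these data known. Every member was named, any pathway gene could be named, and the genes of like profile were the 10 of highest correlation by each measure. Ccr7, Cd209a, Clec10a, Mertk, Cx3cr1, Cd14, C1qa, C1qb and C1qc were singled out after their values were seen. Groups and numbers came from the sample titles. Deviations from the group means of same-numbered control and TAI mice correlated at 0.271, 0.241 and 0.308. For differently numbered control and TAI mice the values were -0.336 to 0.146. Same-numbered TAI/IVIg mice correlated with mice of the other groups at -0.296 to 0.201. TAI/IVIg mouse 2 and control mouse 3, of different number, reached 0.408, so whether the numbers pair mice is not settled. One pathway gene counted in its list is not reported here by name. Symbols March1, March8 and H2-Ea-ps are those of the gene table.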

Additional observations from a re-analysis of the deposited data

How the results depend on the processing

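With 3 mice a group and a pooled SD of 0.74 in the mean log2 level of the members, the intervals are wide, and each member had 42 reads or more in each library. Called members numbered 0 under every alternative except 1 (H2-Ab1) in TAI/IVIg against control without control mouse 3. The median of the members ran from -0.67 to 0.32 in TAI against control, from -0.12 to 0.87 in TAI/IVIg against control and from 0.22 to 0.74 in TAI/IVIg against TAI with each mouse left out in turn. The replicate block called 0 members in each comparison and left the median at -0.30, 0.21 and 0.53, and it changed no call of the members. Among pathway genes the block added Ifi30 in TAI against control. In TAI/IVIg against control it added Sppl2a (limma adjusted p = 0.0393) and lost Rfx5 (0.0668). Whether the numbers pair mice is not settled. Pathway genes called in TAI against control, 8 as reported, numbered 5 without the filter, 13 with only the 6 libraries compared, 4 to 10 with a mouse left out (5 without control mouse 2, 4 without TAI mouse 1) and 0 without the 4 libraries with B cell markers. In TAI/IVIg against control, 13 as reported, they numbered 9 to 13 with a mouse left out, 1 without those 4 libraries and 4 without control mouse 3 and TAI/IVIg mouse 3. Over all genes, calls in TAI against control ranged from 707 to 1022 higher and from 1643 to 3695 lower with a mouse left out, and were 306 and 1044 without the 4 libraries, which in TAI/IVIg against control left 573 and 3012. Lower calls in TAI/IVIg against TAI, 0 as reported, were 4 without the filter and 3 with the block. The alternatives without 2 or 4 libraries fit fewer mice, assume that a lone control varies like the other groups and, like the B cell covariate and the ratios with mice left out, were chosen after seeing the data.

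Signs of single members turned as follows, all within the spread between mice, and the cause was not tested. In TAI against control, Cd74 was 0.0545 with library medians equal. With voom and median-ratio library sizes, H2-Aa, H2-Eb1 and Cd74 were 0.0041, 0.0099 and 0.0740. Without the 4 libraries with B cell markers, H2-Aa and H2-Eb1 were 0.17 and 0.27. Without control mouse 3 and TAI/IVIg mouse 3, H2-Aa, H2-Eb1, Cd74, H2-DMa and H2-DMb1 were 0.44, 0.42, 0.32, 0.0382 and 0.16. With the B cell covariate, H2-Aa, H2-Eb1 and Cd74 were 0.10, 0.14 and 0.0163. With a mouse left out, the estimates ran from -0.70 to 0.44 for H2-Aa, -0.30 to 0.63 for H2-Ab1, -0.67 to 0.42 for H2-Eb1, -0.63 to 0.32 for Cd74, -0.81 to 0.0382 for H2-DMa and -0.65 to 0.16 for H2-DMb1. In TAI/IVIg against control, H2-DMa was 0.44 with medians equal, 0.36 with quantile normalization, 0.41 with voom and median-ratio sizes, 0.34 without the 4 libraries, 0.29 without the 2 and 0.30 with the covariate. With a mouse left out, estimates ran from -0.0627 to 1.09 for H2-Aa, -0.22 to 0.87 for H2-Eb1, -0.0845 to 0.87 for Cd74, -0.36 to 0.49 for H2-DMa and -0.15 to 0.70 for H2-DMb1. In TAI/IVIg against TAI, Ciita was -0.0033 with a pseudocount of 0.1, -0.0625 with voom and total sizes, -0.0800 without the 4 libraries, and -0.37 to 0.35 with a mouse left out.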
